A study of Mus musculus with 40 samples.

Results

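The gene loci described here are those of Cdh5, Pecam1, Tek, Tie1, Eng, Esam, Emcn and Icam2, 8 genes whose products sit at the junctions or on the surface of endothelial cells. The rule that picks the fragments uses gene names and positions and no measured value. A locus was the RefSeq gene body in mouse mm10 with 25 kb on each side, and a reporter fragment belonged to it when its centre lay inside. The 8 loci held 604 distinct fragments of 354627 in the whole screen. Because a fragment can be recovered in more than 1 library, these made 752 of 458486 listed entries.

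The screen asked which pieces of open chromatin drive a reporter gene as embryonic stem cells turn into blood. DNA cut out by the Tn5 transposase, which inserts into accessible chromatin, was taken from 5 stages and cloned in front of a minimal HSP68 promoter and a Venus-YFP gene, and the plasmid libraries were mixed for transfection. The construct was placed at the Hprt locus of HM-1 cells, a mouse ES cell line of strain 129/ola whose Hprt gene is not functional and is repaired by the insertion, so that each cell carried 1 fragment. Cells were then differentiated in serum, with no drug or mutation distinguishing the groups, and sorted by stage and by YFP into Negative, Low, Medium and High gates, in 2 replicates, giving 40 libraries in 20 groups of 2. The stages were ES cells, FLK1+ hemangioblast cells (HB), hemogenic endothelium 1 (HE1; KIT+ TIE2+ CD41-), hemogenic endothelium 2 (HE2; KIT+ TIE2+ CD41+) and hematopoietic progenitors (HP; KIT+ TIE2- CD41+). TIE2 is the protein made by Tek, one of the 8 genes, so its presence on the cells helped to define the stages, although the reporter at Hprt was not part of that gate. The files hold DNA positions and no RNA, and the stage labels could not be checked against marker genes. Every value comes from 1 parental line and 1 integration site, and HE1, HE2 and HP came from the same kind of blast culture.

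Endothelial cells line vessels as a sheet held together by junctions, in which VE-cadherin, the product of Cdh5, forms the adherens contact and Esam lies at the tight junction. Pecam1 (CD31) and Icam2 are immunoglobulin-family adhesion molecules of the same cells, and endomucin, from Emcn, is a sialomucin of their surface. Tek encodes the angiopoietin receptor TIE2, Tie1 its partner receptor, and Eng encodes endoglin, a co-receptor for TGF-beta and BMP ligands. Hemogenic endothelium carries many of these proteins before it gives rise to blood cells.

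Fragments that overlapped one another were merged into regions. A region is named here by the distance of its centre from the start of the gene in the direction of transcription. The centre is the middle of its best-covered 300 bases, and introns and exons are given for that base alone. The stretches of 300 bases below are the best-covered part of the leading region of 7 of the loci and are shown because the counts that follow are counts of fragments over this DNA. They are mm10 reference sequence, plus strand, 5′ to 3′. Capitals mark matches, on either strand, to short motifs of factors active in endothelium or blood: ETS (CAGGAAG or CCGGAAG), the GATA family motif (letters AGATAAG), AP-1 (TGANTCA), TEAD (GGAATG), SOX (ACAATGG or ACAAAGG), E-box (CAGCTG), RBPJ (TGGGAA) and RUNX (TGTGGT). No matches overlapped one another in these stretches. Emcn, with 1 distinct fragment in its leading region, is not shown.
Cdh5 -2.1 kb, chr8:104099376-104099675: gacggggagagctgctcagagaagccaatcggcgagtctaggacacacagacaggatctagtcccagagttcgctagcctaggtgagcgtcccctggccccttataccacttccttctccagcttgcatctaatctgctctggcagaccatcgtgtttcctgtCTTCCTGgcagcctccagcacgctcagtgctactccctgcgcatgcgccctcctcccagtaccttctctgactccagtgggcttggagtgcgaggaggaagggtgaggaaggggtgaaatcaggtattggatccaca
Pecam1 -7.7 kb, chr11:106722810-106723109: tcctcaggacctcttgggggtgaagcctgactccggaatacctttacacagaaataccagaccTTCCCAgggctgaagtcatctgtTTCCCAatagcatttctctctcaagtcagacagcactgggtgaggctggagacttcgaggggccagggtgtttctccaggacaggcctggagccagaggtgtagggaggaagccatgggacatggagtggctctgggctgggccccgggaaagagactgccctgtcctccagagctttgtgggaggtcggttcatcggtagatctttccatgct
Tek +7.2 kb, chr4:94746351-94746650: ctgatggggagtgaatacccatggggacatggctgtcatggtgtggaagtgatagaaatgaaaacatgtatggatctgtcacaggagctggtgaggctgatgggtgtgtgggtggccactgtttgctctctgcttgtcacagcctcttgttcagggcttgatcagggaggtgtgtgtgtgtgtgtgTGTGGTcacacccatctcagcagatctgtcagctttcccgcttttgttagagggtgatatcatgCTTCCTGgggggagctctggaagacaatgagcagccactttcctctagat
Tie1 +24.0 kb, chr4:118465727-118466026: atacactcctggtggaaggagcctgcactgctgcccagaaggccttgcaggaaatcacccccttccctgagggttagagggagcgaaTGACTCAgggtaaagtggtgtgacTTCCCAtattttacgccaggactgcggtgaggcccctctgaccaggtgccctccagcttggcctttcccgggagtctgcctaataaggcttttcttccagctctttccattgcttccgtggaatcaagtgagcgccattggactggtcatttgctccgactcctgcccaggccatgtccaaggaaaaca
Eng +15.4 kb, chr2:32661814-32662113: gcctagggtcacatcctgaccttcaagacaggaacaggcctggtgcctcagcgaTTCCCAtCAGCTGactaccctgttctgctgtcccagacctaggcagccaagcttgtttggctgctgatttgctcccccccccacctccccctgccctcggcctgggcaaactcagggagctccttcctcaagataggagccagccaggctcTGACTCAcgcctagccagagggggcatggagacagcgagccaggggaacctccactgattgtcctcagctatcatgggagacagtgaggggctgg
Esam +2.2 kb, chr9:37530182-37530481: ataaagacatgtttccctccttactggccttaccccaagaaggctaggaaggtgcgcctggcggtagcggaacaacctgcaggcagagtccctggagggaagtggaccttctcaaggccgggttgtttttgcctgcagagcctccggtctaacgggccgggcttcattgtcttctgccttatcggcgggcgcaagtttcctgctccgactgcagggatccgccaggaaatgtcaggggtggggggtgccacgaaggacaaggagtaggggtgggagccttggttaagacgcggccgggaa
Icam2 -9.3 kb, chr11:106391956-106392255: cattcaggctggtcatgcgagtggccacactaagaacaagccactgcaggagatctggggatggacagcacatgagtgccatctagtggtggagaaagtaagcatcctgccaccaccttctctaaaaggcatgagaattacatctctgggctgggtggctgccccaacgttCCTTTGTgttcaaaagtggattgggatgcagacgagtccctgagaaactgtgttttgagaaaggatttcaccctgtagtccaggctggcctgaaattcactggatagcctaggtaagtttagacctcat

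The Cdh5 stretch held 1 ETS match, the Tek stretch 1 ETS and 1 RUNX match, the Tie1 stretch 1 AP-1 and 1 RBPJ match, and the Eng stretch 1 each of AP-1, E-box and RBPJ. The Pecam1 stretch held 2 RBPJ matches, the Icam2 stretch 1 SOX match, and the Esam stretch none. One such window of 300 bases was searched for every region, and it reaches into neighbouring DNA where the region is narrower. Of the 66 windows of the 8 loci 13 held the ETS motif (19.7%), against 20.5% of the 75042 windows searched over the screen. The RBPJ motif occurred in 36.4% of the windows of the 8 loci against 28.4% of all, E-box in 27.3% against 19.8%, AP-1 in 18.2% against 13.3% and RUNX in 21.2% against 23.5%. TEAD occurred in 21.2% against 18.7% and SOX in 16.7% against 12.5%. The GATA motif occurred in 0 of the 66 windows, and in 5.93% of all. A match is a description of the letters and not of a bound site, and an absent match says only that these letters were not in the stretch. GC content was near that of the screen, with a mean of 51.5% over the windows of the 8 loci and 49.4% over all.

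Depth was set by the number of distinct fragments per library, since the deposited lists carry no read counts. Replicate 1 libraries held 4869 to 51146 fragments and replicate 2 libraries 654 to 31915. The 8 loci were also represented unequally: they received 686 of the replicate 1 entries, or 19.0 per 10000, and 66 of the replicate 2 entries, or 6.78 per 10000, and 5 replicate 2 libraries had none. The values below therefore rest mostly on replicate 1. The HP sort of replicate 2 stood apart, with 25.8% of its fragments positive against 56.0 to 92.6% in the other 9 sorts. The methods name 2 replicates of the screen and a transfection for each experiment. They do not say what else the samples of 1 replicate share. The limma p-values below measure the spread between these samples. Those of the Cochran-Mantel-Haenszel test treat the fragments within a sort as independent, and the spread between samples does not enter them.

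Within a sort, meaning 1 stage of 1 replicate, a fragment was counted once as positive if it was in the Low, Medium or High library and once as negative if it was in the Negative library. Over the 10 sorts the 8 loci gave 558 positive and 180 negative fragments. The positive share was 75.6% (Wilson 95% interval 72.4 to 78.6%), beside 76.8% for all fragments of the screen. In replicate 1 it was 76.4% against 78.2%, and in replicate 2 it was 67.7% against 71.1%. Of the 180 negative fragments 53 (29.4%) were also positive in the same sort, compared with 36.3% of negative fragments in the screen. Fragments of the 8 loci were thus recovered from YFP-negative cells about as often as other fragments were. Intervals cover counting error only, since the libraries were amplified by PCR without molecular identifiers. The Wilson interval also treats all counts as independent, although 65 of the 604 distinct fragments were found in several sorts. Between single sorts the positive share of the 8 loci ran from 28.0 to 100%, a spread that this interval does not include.

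The loci differed widely in how many fragments they held. Eng led with 227 entries from 174 distinct fragments, followed by Pecam1 with 120 from 94, Cdh5 with 117 from 101 and Esam with 115 from 94. Icam2 had 66 entries from 55 distinct fragments, Tie1 65 from 51 and Tek 38 from 33. Emcn had 4 entries from 2 distinct fragments. Per 10 kb of window the order was Eng (20.2 distinct fragments), Esam (15.6), Cdh5 (10.9), Icam2 (9.09), Pecam1 (8.46), Tie1 (7.43), Tek (1.78) and Emcn (0.143). Set among 21887 gene loci drawn the same way, Eng had more positive fragments than 98.7% of them and Emcn more than 32.6%, where the median locus had 6. Tek has the longest gene body of the 8 and Emcn the second longest. Neighbouring genes begin inside some windows, among them Ak1 and Fpgs in that of Eng, Nrgn and Vsig2 in that of Esam and Prr29 in that of Icam2, and the data do not say which gene a fragment belongs to.

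**Figure D1:**
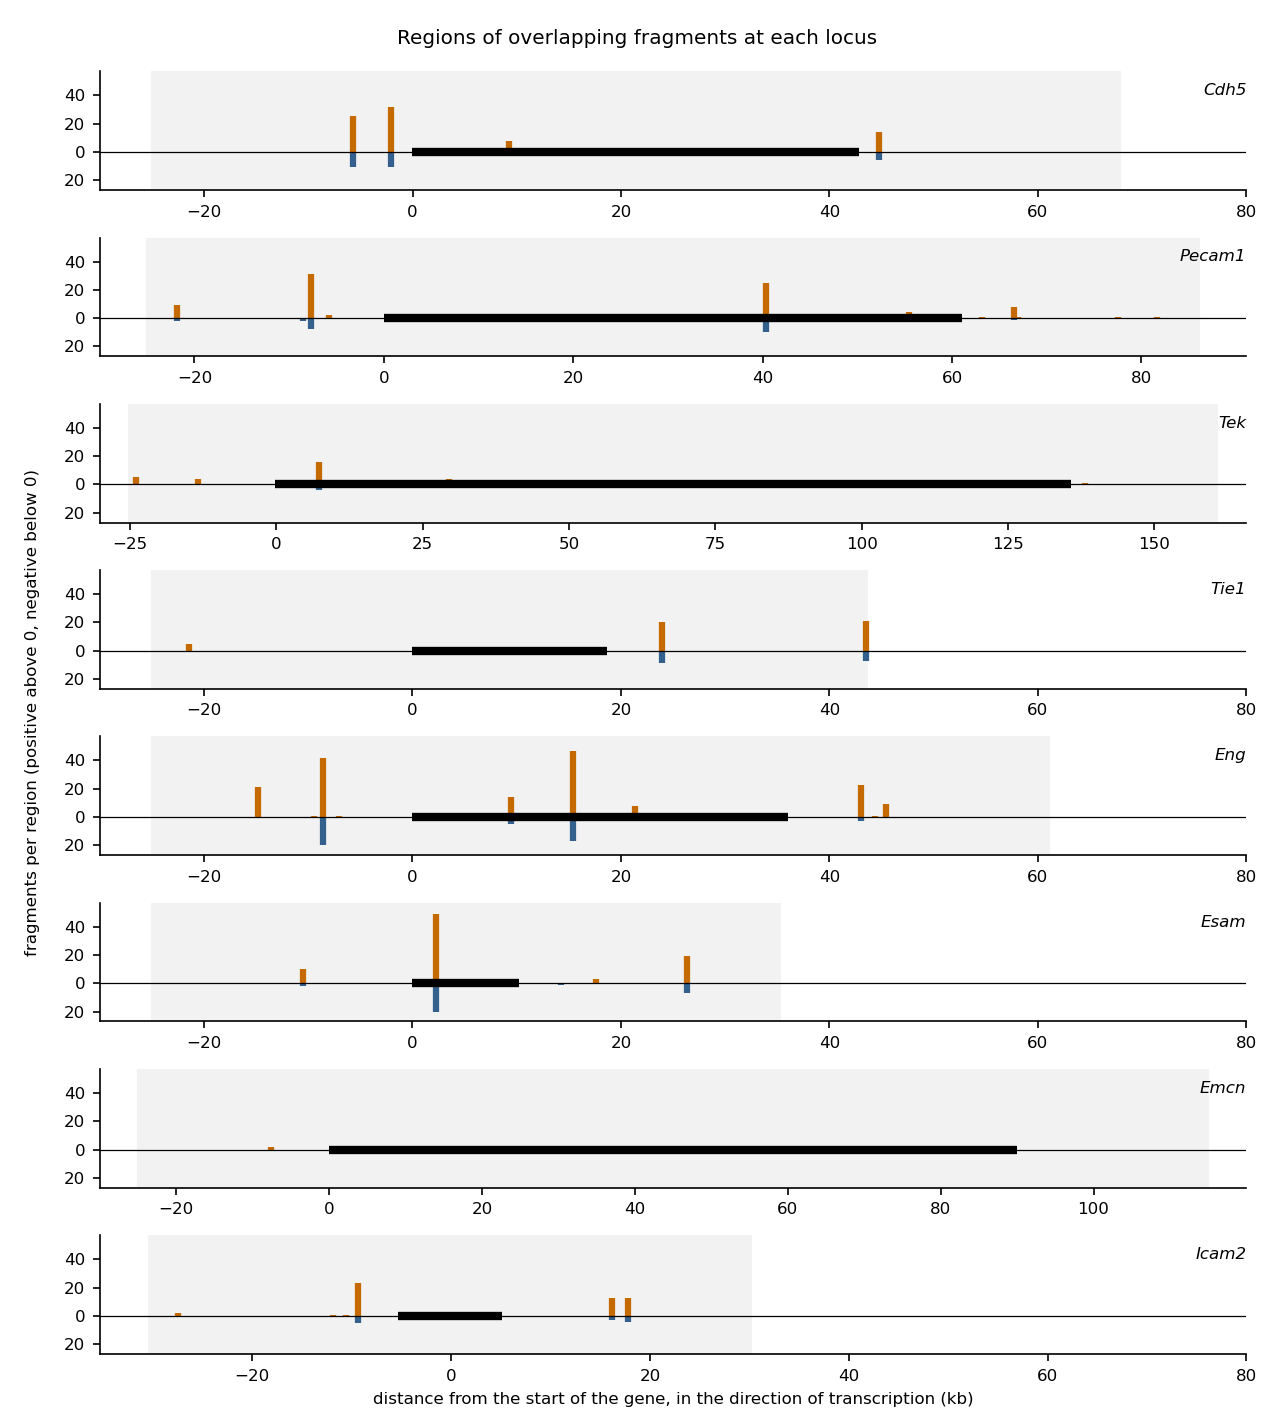
Regions of overlapping fragments at each locus, placed by distance from the start of the gene in kb along the direction of transcription (black bar, gene body; grey, window searched). Bars count positive fragments above 0 (orange) and negative fragments below 0 (blue) over the 10 sorts; most fragments stood in 1 or 2 regions per locus, and Emcn was nearly empty.

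The fragments were concentrated in few places. The 2 leading regions of each locus together held 515 of the 752 entries (68.5%), from 56.8% at Eng to 89.2% at Tie1, leaving out Emcn. Of the 66 regions, 37 had their centre in an intron, 4 in an exon and 25 between genes. No region had its centre within 1500 bp of a curated transcript start. The study used this same distance to set promoter fragments apart. Whether they had been removed from the lists is not stated, so the absence is not read as a trait of these loci. In 29 of the 66 regions the nearest start was that of the gene itself. No share over the whole screen is given for the counts above, so they describe these loci without setting them apart. Single-fragment regions numbered 29 (43.9%), against 60.6% in the screen, and the median width was 327 bp against 264 bp.

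Cdh5, chr8:104101613-104144504 on the plus strand, held its fragments mainly upstream. Its leading region at -2.1 kb, chr8:104099085-104099970, had 32 positive and 11 negative fragments. The second at -5.7 kb, chr8:104095368-104096242, had 25 positive and 11 negative. Both lie within an intron of Gm29682, an overlapping transcript. In replicate 1 the -2.1 kb region gave 1 positive fragment in ES, 2 in HB, 12 in HE1, 12 in HE2 and 5 in HP. The -5.7 kb region gave 14 in HE1, 11 in HE2 and 0 in ES, HB and HP, and its negative fragments followed the same stages, with 7 in HE1, 3 in HE2 and 0 in the other replicate 1 sorts. These counts are not scaled to depth: the positive sets of replicate 1 held 101943 fragments in HE1 and 68427 in HE2, against 27717 to 39671 in the other stages. The same holds for the region counts of the other loci below. Neither region had a positive fragment in replicate 2, where the whole locus had 1. The stretch of the -5.7 kb region that was searched for motifs held 4 ETS matches.

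Esam, chr9:37528089-37538319 on the plus strand, had the widest region of the 8 loci, 1622 bp with its centre in an intron at +2.2 kb. This region, chr9:37529838-37531459, had 49 positive and 20 negative fragments. The positive fragments of this region in replicate 1 numbered 3 in ES, 7 in HB, 18 in HE1, 18 in HE2 and 3 in HP. Per 10000 of the positive set this was 1.08, 1.80, 1.77, 2.63 and 0.756 in the same order. A second region at +26.4 kb, chr9:37554233-37554812, lies 1.7 kb upstream of Nrgn and had 19 positive and 7 negative fragments, with none of either class in ES or HB. In replicate 2 the 3 positive fragments of the locus were all outside these regions.

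Eng, chr2:32646595-32682669 on the plus strand, had 13 regions. The leading region, in an intron at +15.4 kb, chr2:32661560-32662367, had 47 positive and 17 negative fragments. In replicate 1 it was empty in ES but had 9 positive fragments in HB, 16 in HE1, 14 in HE2 and 7 in HP. Per 10000 of the positive set the region had 2.31 in HB, 1.57 in HE1, 2.05 in HE2 and 1.76 in HP. Its only positive fragment of replicate 2, 1 in number, was in ES. The region at -8.6 kb, chr2:32637762-32638354, which lies nearer the start of Ak1, had 42 positive and 20 negative fragments. In replicate 1 it was empty in ES and HB and had 17 positive fragments in HE1, 12 in HE2 and 11 in HP. Scaled the same way, the values were 1.67 in HE1, 1.75 in HE2 and 2.77 in HP. Replicate 2 added 1 positive fragment there in ES and 1 in HP. A region at -14.8 kb, chr2:32631599-32632236, had 21 positive fragments and 1 negative one. At +45.4 kb, in an intron of Fpgs, all 9 positive fragments came from replicate 2.

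Pecam1, chr11:106654213-106715281 on the minus strand, had the most regions, 19. The leading one at -7.7 kb, chr11:106722632-106723319, had 31 positive and 8 negative fragments, with 3 positive in ES, 3 in HB, 14 in HE1, 8 in HE2 and 3 in HP of replicate 1. Per 10000 of the positive set this was 1.08, 0.770, 1.37, 1.17 and 0.756 in the same order. The intronic region at +40.4 kb, chr11:106674378-106675395, had 25 positive and 10 negative fragments. It differed from those above in its ES fragments, 7 positive and 4 negative in replicate 1 and 1 positive in replicate 2.

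Icam2, chr11:106377656-106388139 on the minus strand, was led by a region at -9.3 kb, chr11:106391741-106392343, with 23 positive and 5 negative fragments. In replicate 1 the positive fragments numbered 1 in ES, 5 in HB, 10 in HE1, 3 in HE2 and 3 in HP, and replicate 2 had 1 in HE1. Per 10000 of the positive set the replicate 1 values were 0.361, 1.28, 0.981, 0.438 and 0.756 in the same order. The region at +17.8 kb, chr11:106364754-106365535, with 13 positive and 4 negative fragments, had 4 positive in ES and 5 in HB and between 1 and 2 in each later stage.

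The receptor genes Tek and Tie1 lie on the same chromosome. Tek, chr4:94739086-94874976 on the plus strand, had 1 well-covered region, in an intron at +7.2 kb, chr4:94746256-94746780. It held 16 positive fragments, 11 in HE1, 4 in HE2 and 1 in HP of replicate 1, and 4 negative ones, all in HE1. A second intronic region at +29.5 kb, chr4:94768678-94768896, had 4 positive and 2 negative fragments, in HE2 and HP. For Tie1, chr4:118471191-118489849 on the minus strand, the leading region at +24.0 kb, chr4:118465686-118466134, is downstream of the gene. It had 20 positive and 9 negative fragments, and in replicate 1 none in ES, 4 positive in HB, 6 in HE1, 8 in HE2 and 2 in HP. Per 10000 of the positive set this was 1.03 in HB, 0.589 in HE1, 1.17 in HE2 and 0.504 in HP. Upstream, at -21.4 kb, 5 positive fragments were counted in replicate 2 alone, from 2 distinct fragments.

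Emcn, chr3:137341062-137431069 on the plus strand, had a single distinct fragment of 333 bp at -7.6 kb, chr3:137333336-137333668, listed in the HE1 Low, HE2 Low and HE2 Negative libraries of replicate 2. The only other fragment was a Negative one of HP in replicate 2, in an intron. Replicate 1 had none, which allows at most 1.08 positive fragments per 10000 in its smallest positive set (3 fragments of the set).

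**Figure D2:**
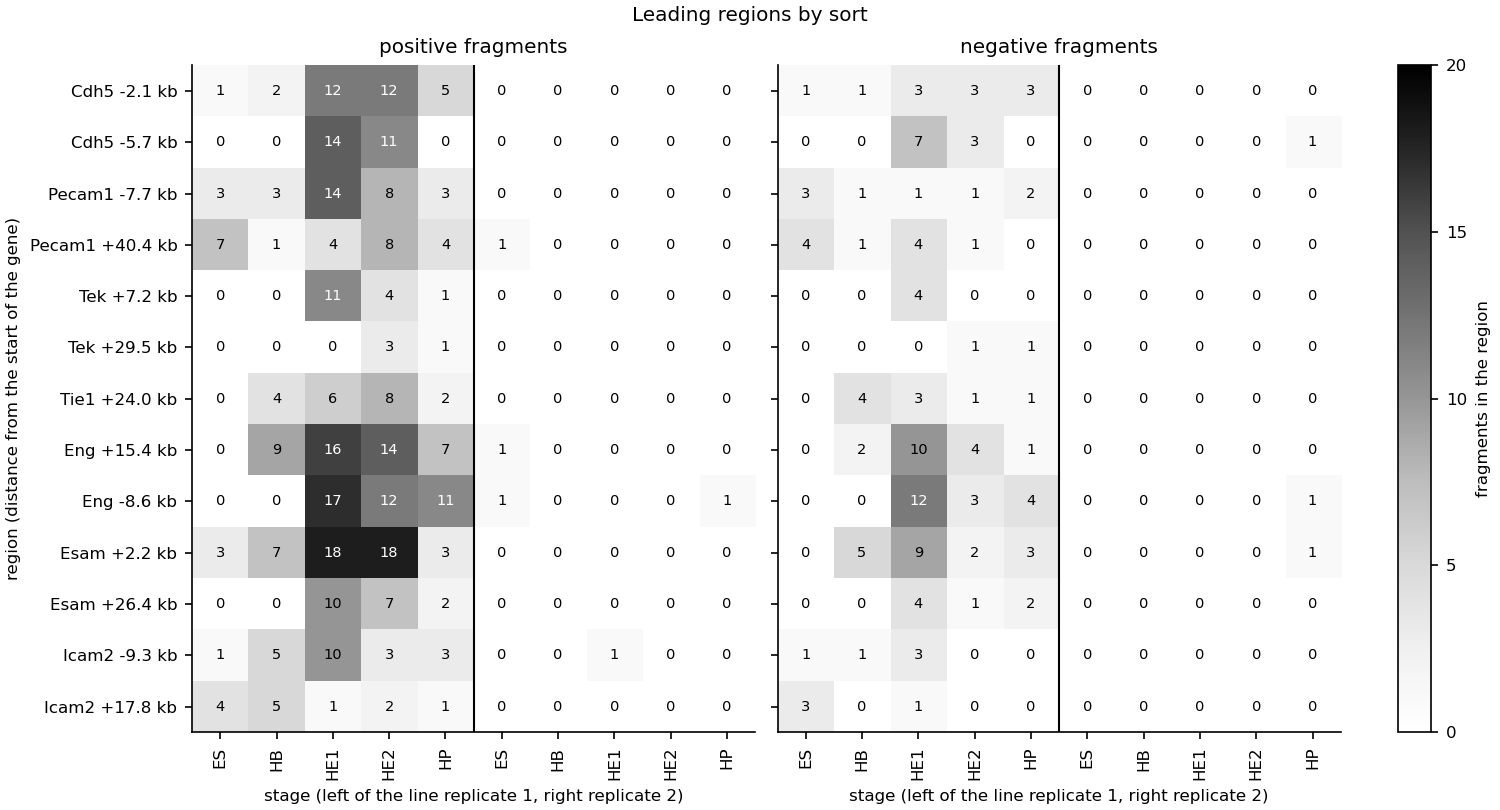
Positive (left) and negative (right) fragments in the 2 leading regions of each locus, with 1 region for Tie1 and none for Emcn, by stage, with replicate 1 left of the line and replicate 2 right of it; the number and the grey level both give the fragments in the region. The HE1 and HE2 columns of replicate 1 hold the highest counts, up to 18 positive in the Esam +2.2 kb region, in the largest positive sets of the screen, and the replicate 2 columns are almost empty.

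Recovery in both replicates was limited. Of the 56 regions with a positive fragment, 5 (8.93%) had one in both replicates, beside 8.14% of the regions of the screen, and 10 regions were negative only. In 4 regions a positive fragment occurred in both replicates of the same stage, namely Pecam1 +40.4 kb in ES, Eng -8.6 kb in HP, Eng +21.3 kb in HE1 and Icam2 -9.3 kb in HE1. This was 7.14% of the 56, beside 6.03% in the screen. Each of the 4 rests on 1 positive fragment of replicate 2 in that stage, and Eng -8.6 kb also had 1 negative fragment in HP of replicate 2. Of the 604 distinct fragments, 2 were found in both replicates (0.331%, beside 0.956% of all distinct fragments), both at Eng. Of these, chr2:32667867-32668088 in the Eng +21.3 kb region was in HE1 Negative of replicate 1 but in HE1 Low of replicate 2. The other, chr2:32637871-32637972, was in HE1 Medium and HE1 Negative of replicate 1 and in ES High of replicate 2. The fragment recovered most often was chr2:32661898-32662114 in the Eng +15.4 kb region, in 8 libraries of 4 replicate 1 sorts, 4 of them Negative libraries.

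Absence from a stage was common in the screen as a whole. Among regions with at least 20 fragments, 5 of the 15 in the 8 loci (33.3%) had no ES fragment of either class, beside 26.9% of all such regions. They were Cdh5 -5.7 kb, Tek +7.2 kb, Tie1 +24.0 kb, Eng -14.8 kb and Esam +26.4 kb. A positive fragment in each of the 5 stages of replicate 1 was found for 8 of the 15 (53.3%), beside 54.7%. No replicate 2 fragment was found in 8 (53.3%), beside 42.6%. A negative fragment was present in each of the 15, and 0.687% of all such regions had none.

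The first comparison asked whether fragments of a locus were enriched among the YFP-positive cells of a sort. None of the 8 loci met the threshold of an adjusted p of 0.05. The Cochran-Mantel-Haenszel test compares positive and negative counts with the 10 sorts kept apart, and gave the lowest odds ratio for Cdh5 among the 7 tested, 0.690 (95% interval 0.454 to 1.05), with 82 positive fragments where 89.5 would match the share of all fragments. Esam followed with 0.720 (0.467 to 1.11), and both thus leaned to the negative gate without the interval leaving 1. The intervals for Tie1 (0.746, 0.416 to 1.34), Eng (0.908, 0.659 to 1.25) and Pecam1 (1.04, 0.663 to 1.63) also held 1. Tek (1.40, 0.575 to 3.39) and Icam2 (1.46, 0.759 to 2.82) had the highest estimates of the 7 tested, and their intervals held 1 too. Emcn, with 4 entries, was under the minimum of 20 fragments. All 7 adjusted p-values of this test were 1.00, and 4 of 8014 gene loci (0.0499%) were called. Together the 8 loci had 558 positive fragments where 572.4 would match, a ratio of 0.975.

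**Figure D3:**
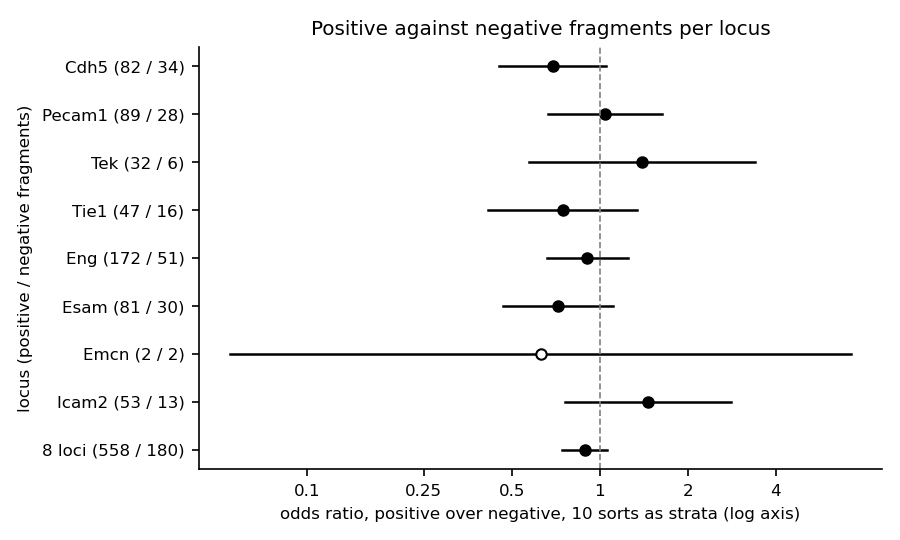
Odds ratio of positive over negative fragments for each locus against all other fragments, with the 10 sorts as strata, on a log axis; points are Mantel-Haenszel estimates, bars their 95% intervals and the open point a locus under the minimum of 20 fragments. Every interval crosses the dashed line at 1, from 0.690 for Cdh5 to 1.46 for Icam2 among the 7 tested.

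The same comparison was fitted with limma on log2 fragments scaled to the size of each set, positive minus negative, with the sort as a block. It called 10 of 8014 gene loci (0.125%), all lower in the positive set, and 0 of the 7 tested here, of which 2 had an unadjusted p under 0.05. These were Cdh5, with a log2 difference of -1.04 (SE 0.35, adjusted p = 0.152 by limma), and Esam with -0.75 (SE 0.36, adjusted p = 0.273 by limma). The median over all loci was itself -0.42, with the same offset added to the counts of large and small sets, and 1385 loci (17.3%) had an unadjusted p under 0.05. With the offset scaled to each set, a choice made after that median was seen, the median was 0.31 and the differences were -0.63 for Cdh5 and -0.27 for Esam, while Tie1, Tek and Pecam1 changed sign. In replicate 1, Cdh5 had 0.722 positive fragments per 10000 of the positive set in ES, 1.28 in HB, 3.63 in HE1, 4.24 in HE2 and 2.02 in HP. Its negative fragments numbered 0.966, 2.37, 3.87, 8.30 and 4.73 per 10000 of the negative set in the same order. The negative value was the higher of the pair in 5 of 5 replicate 1 sorts, although the ES values rest on 2 positive fragments and 1 negative one. The HB negative value rests on 2 fragments. In replicate 2 each class of Cdh5 was the higher in 1 sort. Summed over the 8 loci, the negative value was also the higher in 5 of 5 replicate 1 sorts, and in replicate 2 the positive value was the higher in 4 sorts and the negative in 1.

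Region by region the result was alike. Of the 15 regions with at least 20 fragments, 1 of which crosses the edge of the Tie1 window and was tested whole, 0 were called by the Cochran-Mantel-Haenszel test and 0 had an unadjusted p under 0.05, while 10 of 5530 regions of the screen (0.181%) were called. The lowest unadjusted p was 0.108, for the Eng -8.6 kb region, with an odds ratio of 0.619. The Eng -14.8 kb region had the highest odds ratio, 4.63, with an unadjusted p of 0.163 and 1 negative fragment. Of the 15, 10 lay below the expected number of positive fragments and 5 above, and their median odds ratio was 0.712 beside 0.995 for all tested regions.

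**Figure D4:**
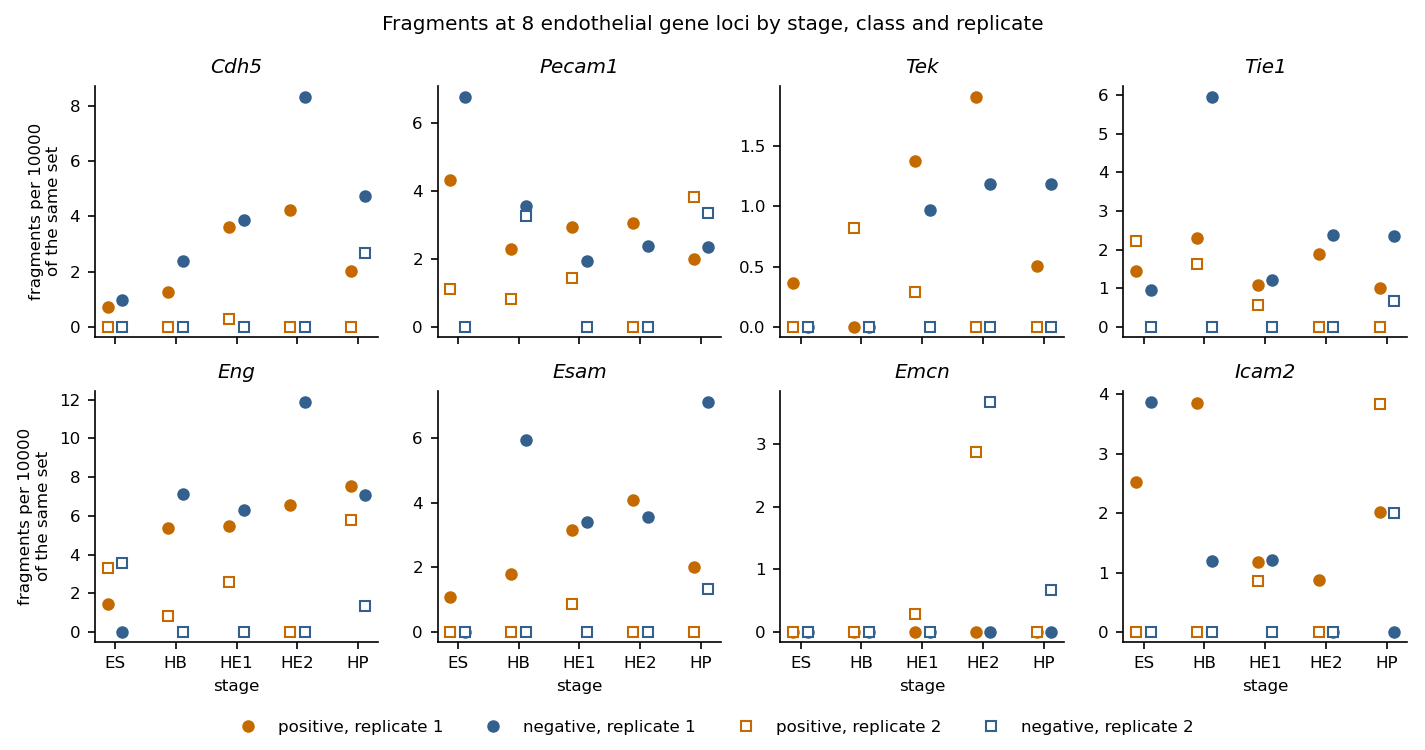
Fragments of each locus per 10000 of the same set (positive, orange; negative, blue) by stage, with replicate 1 as filled circles and replicate 2 as open squares; each point is 1 sort and the axes differ between loci. Cdh5 and Esam positive fragments peak in HE2 of replicate 1, at 4.24 and 4.09, and their negative fragments are as frequent or more so in most replicate 1 sorts.

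The second comparison asked whether the positive fragments of a locus changed with stage. Summed over the 8 loci, replicate 1 had 11.9 positive fragments per 10000 in ES, 16.9 in HB, 18.8 in HE1, 22.7 in HE2 and 17.1 in HP. Replicate 2 had 6.65, 4.10, 7.18, 2.88 and 13.4 in the same order, from 6, 5, 25, 1 and 7 fragments. The highest stage was HE2 in replicate 1 and HP in replicate 2. Negative fragments of replicate 1 numbered 12.6 per 10000 in ES, 26.1 in HB, 18.9 in HE1, 29.7 in HE2 and 24.8 in HP, so that ES was lowest and HE2 highest in both classes but HB and HE1 stood in the opposite order.

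Cdh5, Esam and Tek had their highest positive values of replicate 1 in HE2 and the next highest in HE1. Esam had 1.08 per 10000 in ES, 1.80 in HB, 3.14 in HE1, 4.09 in HE2 and 2.02 in HP. Tek had 0.361 in ES, 0 in HB, 1.37 in HE1, 1.90 in HE2 and 0.504 in HP. In replicate 2 these 3 loci had 0 to 3 positive fragments per sort. Eng had a different order, with 1.44 in ES, 5.39 in HB, 5.49 in HE1, 6.58 in HE2 and 7.56 in HP of replicate 1. In replicate 2 its ES value of 3.33, from 3 fragments, exceeded that of HE1 at 2.59, from 9. Pecam1 was highest in ES, at 4.33, and lay between 2.02 and 3.07 in the later stages of replicate 1. In replicate 2 HP was highest at 3.84, from 2 fragments, and ES had 1.11, from 1. Icam2 of replicate 1 was highest in HB, at 3.85, and lowest in HE2, at 0.877. In replicate 2 it was 0 in HB and highest in HP, at 3.84, from 2 fragments. Tie1 ranged from 1.01 in HP to 2.31 in HB of replicate 1, and from 0 in HE2 and HP to 2.22 in ES of replicate 2, the latter from 2 fragments. Replicate 2 counts this low do not fix an order of the stages.

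No difference between stages met the threshold, and with 2 sorts per stage and few fragments the intervals were wide. The fit had no replicate term, so differences between the replicates are part of the spread behind these intervals. The moderated F test of limma over the 5 stages called 0 of 6922 gene loci (50 at an unadjusted p under 0.05), and the adjusted p of each of the 7 loci was 1.00. For the mean of HE1 and HE2 minus ES, limma called 0 loci (149 at an unadjusted p under 0.05). The log2 difference was 1.54 for Cdh5 (95% interval -0.74 to 3.82), 1.39 for Esam, 1.18 for Tek and 0.83 for Eng, and it was -0.27 for Pecam1, -0.41 for Icam2 and -0.67 for Tie1, with an adjusted p of 0.991 by limma for each. The median over all loci was -0.09. For HE1 minus HB, with 0 called (165 at an unadjusted p under 0.05), the 7 loci ran from -1.28 for Tie1 to 1.48 for Tek. For HP minus the mean of HE1 and HE2, with 0 called (91 at an unadjusted p under 0.05), they ran from -0.76 for Tek to 1.41 for Icam2. A test of whether the positive-minus-negative difference varied with stage also called 0 of 8014 loci (115 at an unadjusted p under 0.05), the 7 included.

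The third comparison concerned the strength of the reporter signal. Of the 572 positive entries 149 were in Low, 224 in Medium and 199 in High libraries. Gate shares depended on the replicate: in replicate 1 the High share of positive entries was 35.9% for the 8 loci and 35.4% for all fragments, and in replicate 2 it was 22.2% and 20.1%. Within replicate 1 Pecam1 had the highest High share, 47.0% of 83 entries, and Cdh5 the lowest, 26.8% of 82, with 43 of its entries in Medium. Eng had 36.3% of 160 and Esam 34.1% of 82 in High. Both positive entries of Emcn, in replicate 2, were in Low. With High minus Low fitted by limma over the 10 sorts, 0 of 5142 loci were called (236 at an unadjusted p under 0.05). The 7 loci lay between -0.07 and 0.62, the highest being Pecam1, where the median over all loci was 0.21, and their adjusted p-values ran from 0.993 to 0.995.

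Other genes of endothelial junctions and surface gave a similar picture. Of a list of 34, among them the claudin gene Cldn5, the junctional adhesion genes F11r and Jam3, the catenin genes Ctnna1 and Ctnnd1, and the receptor gene Robo4, 23 had at least 20 fragments. None was called by either test, with 3 at an unadjusted p under 0.05 by limma, and their median log2 difference was -0.44. The 34 loci together had 1649 positive and 512 negative fragments, a positive share of 76.3%. Relative to the number that would match the share of all fragments, positive fragments ranged from 0.874 for the sialomucin gene Podxl to 1.10 for F11r.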

How the data were processed

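Reporter fragments were analysed for 40 libraries of HM-1 mouse ES cells (5 stages, 4 YFP gates, 2 replicates). Per the labels and methods, the authors ran Trim Galore for trimming, Bowtie2 for alignment to mm10, and SAMtools, bedtools and HOMER (versions not given in the sources used here), keeping proper pairs of high mapping quality. The deposited lists give fragment coordinates, with no read counts, score, signal or other measured value. Which later filters of the study, such as that against untransfected cells or the split of promoter fragments, had been applied to the lists is not stated in the sources used here.

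Identical fragments were counted once per sort and class. Gene bodies came from the RefSeq annotation of GRCm38 (mm10), extended by 25 kb. Overlapping fragments of all libraries were merged into regions. Depth was the number of fragments, 654 to 51146 per library. Loci and regions with at least 20 fragments were tested over the whole table with Benjamini-Hochberg adjustment at 0.05: limma 3.58.1 with voom weights in R 4.3.3, sort as block for classes and gates and no block for stages, and the Cochran-Mantel-Haenszel test with continuity correction over the 10 sorts (Python 3.11.15, scipy 1.17.1, pandas 2.3.3, numpy 2.4.6; plots with matplotlib 3.10.9). The test scripts were checked on simulated data with the set sizes of these data. Counts were random draws, Poisson for loci and binomial for regions, with no spread between replicates added. Recovery may be lower where such spread is present. Of loci raised 4-fold, the positive-minus-negative fit recovered 78%, High minus Low 92%, mean of HE1 and HE2 minus ES 18% and class by stage 2%. Of loci lowered 4-fold, the same tests recovered 96.6%, 22.9%, 6.45% and 0%. These are shares of the lowered loci that still had at least 20 fragments, 29 for the first fit. That fit also called 38 of 7790 unchanged loci, beside 10 of 8014 called in the data, so a call by it may fall on an unchanged locus. The region test recovered 6% at an odds ratio of 4 and 52% at 0.25. A locus or region that was not called may therefore still differ by such amounts. Over 6922 loci the deviations of same-numbered samples from their stage means correlated in all 10 stage pairs (r 0.339 to 0.497, median 0.395), and the numbers were taken to pair the samples from these values.

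The 8 genes, the list of 34 and the motifs were chosen with earlier results of these data known, and the lists are described by counts. Named were the 8 genes, the 2 regions of each with most fragments (the second of Tie1, which has 28 of its 42 entries inside the window and was ranked by those, is not reported here) and those positive in both replicates of a stage. Others (Eng -14.8 and +45.4 kb, Tie1 -21.4 kb) were chosen after their values were seen. Alternatives changed the flank, the placing and collapsing of fragments, the minimum, the test, the block, the gates, the overlap and the samples.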

Additional observations from a re-analysis of the deposited data

How the results depend on the processing

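No member locus or region was called under the alternatives that tested any: 21 of the stage test, 20 of the gate test, 18 of the class-by-stage test and 17 of the region test. For positive against negative fragments per locus this held in 22 of 23. Without replicate 1 no member had enough fragments for the gate, region or positive-against-negative test. With no filter beyond 1 fragment 2 were called, Cdh5 (log2 difference -1.05, adjusted p = 0.0128 by limma) and Emcn (adjusted p = 0.00325 by limma, from 4 entries), together with 8710 of 17464 loci. The count over all loci, 10 as reported, was 0 with a flank of 50 kb, near-identical fragments collapsed, a minimum of 50 or Medium and High gates alone, 1 without fragments shared by both classes, 3 with limma-trend or the scaled offset and 4 with the Cochran-Mantel-Haenszel test. It was 0 without replicate 1, 2 without replicate 2, 4 without HE1 replicate 1, 22 without HP replicate 2, and 0 to 8 without any other single sort. Over all regions, 10 as reported, it was 0 with collapsed fragments, 5 with a minimum of 50, 17 with a minimum of 10, 3 with Medium and High gates, and 5 to 17 with samples left out, 17 being without HP replicate 2.

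Without the replicate block 0 loci of 8014 and 23 regions of 5530 were called, no member among them, and Icam2 turned to -0.091; the block changed no other call of a member.

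Cdh5 (-1.26 to -0.50) and Esam (-1.06 to -0.18) kept their direction in all 22 alternatives that gave a value. Eng, 0.03 as reported, was -0.087 with a flank of 10 kb, -0.23 with 50 kb, -0.050 collapsed and -0.17 without shared fragments, and -0.26 to 0.20 with samples left out, against 0.64 with limma-trend and 0.57 with the scaled offset. Icam2, 0.04 as reported, was -0.26 with a flank of 10 kb, -0.018 with no filter, -0.019 with Medium and High gates and -0.30 without shared fragments, and -0.14 to 0.41 with samples left out, against 0.68 and 0.92. Limma-trend and the scaled offset turned Pecam1 (0.18 and 0.22), Tek (0.30 and 0.47) and Tie1 (0.23 and 0.18). The cause was not tested.

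The positive share of the 8 loci was 67.7 to 79.9%, and 67.7 to 78.2% with samples left out, the lowest without replicate 1, where observed over expected turned from 0.975 to 1.08 (0.962 to 1.08 with samples left out). With Medium and High gates alone 3 regions, not 5, were positive in both replicates. Stage and class-by-stage tests without a whole replicate were not run, as no residual degrees of freedom remained.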

Other observations

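Over the 10 sorts, the gene loci whose positive fragments per 10000 followed those of the 8 loci most closely, among 1079 loci outside the windows, were She (r = 0.955), Specc1 (0.954), Rassf1 (0.946), Syn3 (0.945) and Nprl2 (0.943). The median over the candidates was 0.587. The points share libraries, depth and replicate, so the values are a description only.

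In replicate 2, 58 distinct fragments of the 8 loci lay in 42 regions, 33 of them (56.9%) alone in their region, beside 59.4% of replicate 2 fragments in the screen. Of the 58, 15 (25.9%) lay in a region that also held replicate 1 fragments, beside 17.6%. In replicate 1, 548 distinct fragments lay in 36 regions, 15.2 per region beside 9.08 in the screen.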
